A study of Mus musculus with 8 samples.

Results

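The T and NK cell genes described here are 40 mouse genes that mark T lymphocytes and natural killer (NK) cells, measured in RNA labelled as macrophage RNA. They were given as a list of names, and the list was chosen with earlier results of these data known. Shares of members set against all features below are therefore not those of an independently chosen list. A probe counted as a member when its transcript belonged to a listed gene. All 40 genes had at least 1 probe, 54 probes in all, out of 20886 named genes and 39429 gene probes on the array. Of the 40 genes, 20 were placed on the T side (such as Cd3e and Lck) and 11 on the NK side (such as Klrd1 and Gzma). The other 9 were placed as shared by both lineages (such as Thy1 and Zap70). The sides are labels only, as some T cells also make several NK side genes, among them granzymes, perforin, Eomes, Tbx21 and Xcl1.

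The study hybridised macrophage RNA from mice given lipopolysaccharide (LPS), a bacterial cell wall component that activates macrophages, to 8 one-colour arrays. Of these, 4 came from wild-type mice (WT 1 to WT 4) and 4 from EP2-KO mice (EP2KO 1 to EP2KO 4), which lack the prostaglandin E2 receptor EP2 encoded by Ptger2. Every group had received LPS, so no untreated level is at hand. The labels give the sex as male. Strain, age, LPS dose and time, the tissue that gave the macrophages and the cells in which EP2 was deleted are not given in the sources used here. The labels do not tie replicates to separate animals, and every p-value therefore reflects only the spread among these samples, which may be technical.

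T cells recognise antigen through a receptor whose signal is carried into the cell by the CD3 chains. The kinase Lck starts that signal, Zap70 passes it on, and the adaptor Lat gathers the downstream enzymes. NK cells lack a rearranged antigen receptor and read target cells through receptors of the Klr and Ncr families. Both NK cells and cytotoxic T cells kill by releasing perforin and granzymes. Macrophages make few of these transcripts, and lymphocytes lie beside macrophages in most tissues and body fluids from which macrophages are taken.

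Each level below is a probe's background-corrected signal divided by the 75th percentile of the signals on its array, so that 1 is the 75th percentile. Levels of different genes come from different probes and are not compared with each other. The arrays lay on 2 slides that were scanned on different days. Slide 1 held WT 1, WT 2, EP2KO 1 and EP2KO 2, and slide 2 held WT 3, WT 4, EP2KO 3 and EP2KO 4. Values on a slide are given in the order of the array numbers. On either slide the WT arrays held the first positions and the EP2KO arrays the last, and position on the slide and genotype cannot be told apart.

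The number of probes well above background ran from 25566 on WT 1 to 32161 on WT 3, and no spot was saturated. Ptger2, the targeted gene, had levels of 0.899 to 1.12 in WT and 0.224 to 0.357 in EP2KO. All 17 macrophage markers that had a probe, among them Adgre1, Csf1r and Lyz2, passed the background limit on all 8 arrays. Xist, which is transcribed from the inactive X chromosome, was well above background on 8 of 8 arrays, whereas the Y-linked Ddx3y, Eif2s3y and Kdm5d were so on 0 arrays and Uty on 1. These levels go against the labelled sex on every array of both genotypes.

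The T and NK cell genes separated the slides and, within slide 1, the genotypes. Across all 8 arrays 34 of the 37 genes that passed the filter on dim probes had a lower mean in EP2KO, with a median log2 difference of -0.74, against 56.6% of all features and a median of -0.03. No gene passed the test between genotypes, since 0 of 37 had an adjusted p under 0.05 (limma over 20744 features, of which 2, or 0.00964%, passed). Between the slides 34 of 37 passed (91.9%), as did 43.2% of all features. Of these 34, 32 were lower on slide 2, by 1.80-fold to 7.57-fold (median 4.71-fold), where 18.2% of all features were lower and 25.1% higher. With normexp background correction 18 of 37 members passed between the slides, as did 3723 of 20744 features. Il7r and Cd28 were higher on slide 2. The median genotype difference was -0.37 without WT 1, -0.42 without WT 2, -0.41 without EP2KO 3 and -1.13 without WT 4, and leaving out any array left the slides unbalanced between genotypes. In such bulk RNA, fewer cells of a type and less of an RNA in each cell cannot be told apart.

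**Figure D1:**
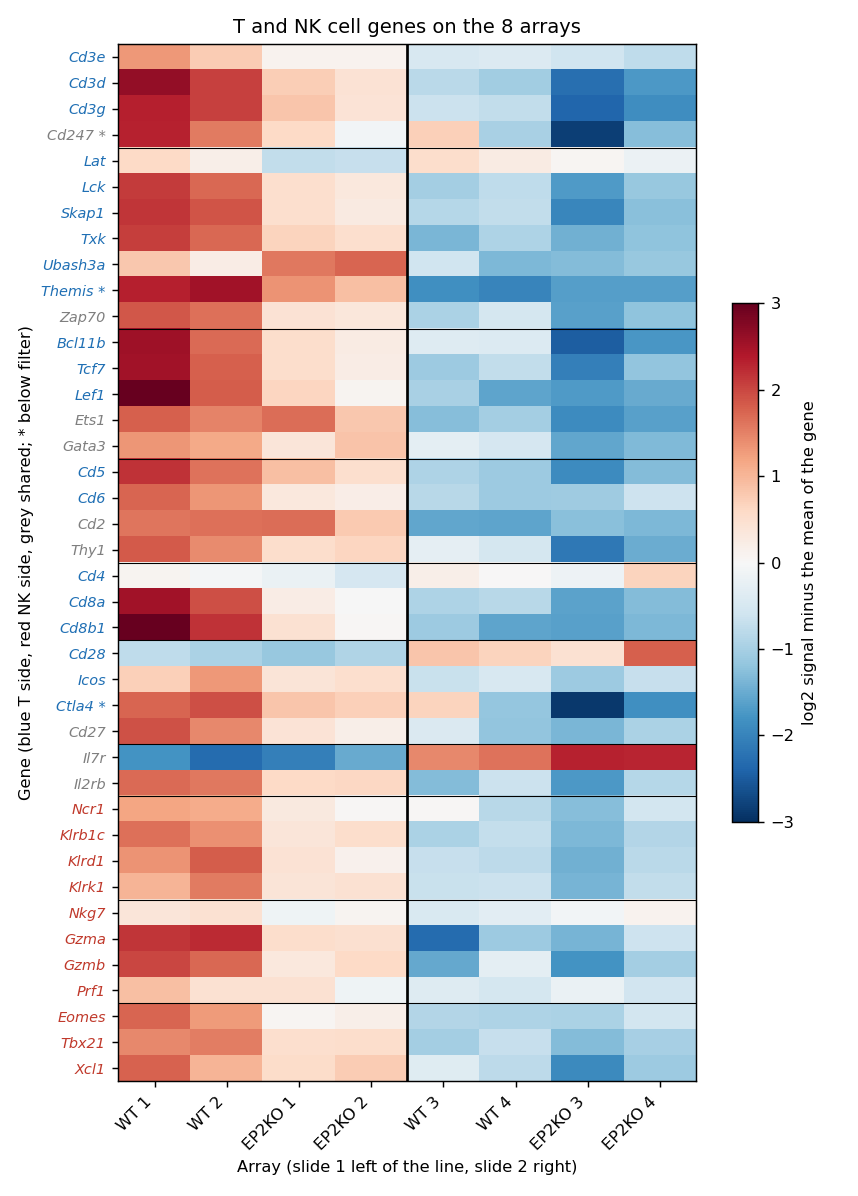
Heat map of the 40 T and NK cell genes (rows) on the 8 arrays (columns). Colour is the log2 level of a gene on an array minus its mean over the 8 arrays, label colours give the T side (blue), NK side (red) and shared genes (grey), and an asterisk marks the 3 genes below the filter on dim probes. WT 1 and WT 2 hold the highest values for most genes and EP2KO 3 the lowest, with Il7r and Cd28 running the other way.

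Of the 40 genes, 35 passed the background limit on every array. Bcl11b did so on 6 arrays and Cd27 on 7. Cd247, Themis and Ctla4 were not well above background on every array of either genotype and were left out of the tests. Their levels are given below. A gene that passed the filter through 1 genotype only could pass because it was higher there. That held for Bcl11b and Cd27, which were above background on all 4 WT arrays but not on all EP2KO arrays.

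The CD3 chains, which form the signalling part of the T cell receptor, were highest on the slide 1 WT arrays. Cd3e, the epsilon chain, had slide 1 levels of 1.33 and 0.925 (WT) and 0.582 and 0.583 (EP2KO) and slide 2 levels of 0.387 and 0.407 (WT) and 0.362 and 0.32 (EP2KO). Cd3d, the delta chain, had levels of 1.98 and 1.33 in WT and 0.532 and 0.43 in EP2KO on slide 1, and of 0.184 and 0.155 in WT and 0.0664 and 0.0977 in EP2KO on slide 2. Cd3g, the gamma chain, had slide 1 levels of 0.856 and 0.7 (WT) and 0.302 and 0.225 (EP2KO) and slide 2 levels of 0.109 and 0.103 (WT) and 0.0328 and 0.0468 (EP2KO). For these 3 chains both EP2KO arrays lay below both WT arrays on either slide, while the EP2KO arrays of slide 1 lay above the WT arrays of slide 2. The Cd3g difference was -1.57 on slide 1 and -1.43 on slide 2 on the log2 scale, or 2.97-fold and 2.70-fold lower in EP2KO. Over all arrays it was -1.50 ± 1.02 (SE, n = 4 per genotype, limma adjusted p = 1.00). In the fit blocked by slide the SE was 0.16 and the limma adjusted p was 0.0788, the lowest of any member, which misses the threshold. Cd3d differed by -1.76 on slide 1 and -1.07 on slide 2, and Cd3e by -0.93 and -0.22. Cd247, the zeta chain that NK cells also use, had levels of 0.0633 and 0.0374 in WT and 0.0192 and 0.0121 in EP2KO on slide 1, and of 0.0209 and 0.00655 in WT and 0.0018 and 0.00529 in EP2KO on slide 2. It passed the background limit on the 4 arrays of slide 1, on 1 WT array of slide 2 and on 0 of 2 EP2KO arrays there. As the other WT array of slide 2 was also below background, no fold between genotypes is given there.

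The promoters of the 3 tested CD3 genes are shown because these genes lie together on chromosome 9 and encode chains of 1 complex. Cd3g and Cd3d start 1355 bases apart and are read away from each other. The sequences are 250-base stretches upstream of the start from RefSeq (build GRCm38.p6), at chr9:45009612-45009861 (minus strand, Cd3e), chr9:44981536-44981785 (plus strand, Cd3d) and chr9:44980432-44980681 (minus strand, Cd3g). Capitals mark matches on either strand to the ETS core GGAAGT (read as ACTTCC on the other strand) or the GATA word AGATAA.
Cd3e: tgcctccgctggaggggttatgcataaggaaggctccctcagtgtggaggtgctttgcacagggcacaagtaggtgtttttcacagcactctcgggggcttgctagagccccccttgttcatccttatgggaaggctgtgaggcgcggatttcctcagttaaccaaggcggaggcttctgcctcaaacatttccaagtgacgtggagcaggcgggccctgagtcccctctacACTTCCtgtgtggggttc
Cd3d: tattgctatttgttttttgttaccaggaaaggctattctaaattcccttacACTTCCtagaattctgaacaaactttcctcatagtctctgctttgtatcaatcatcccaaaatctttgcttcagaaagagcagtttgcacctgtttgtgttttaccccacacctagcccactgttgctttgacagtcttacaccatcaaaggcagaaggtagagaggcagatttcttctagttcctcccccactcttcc
Cd3g: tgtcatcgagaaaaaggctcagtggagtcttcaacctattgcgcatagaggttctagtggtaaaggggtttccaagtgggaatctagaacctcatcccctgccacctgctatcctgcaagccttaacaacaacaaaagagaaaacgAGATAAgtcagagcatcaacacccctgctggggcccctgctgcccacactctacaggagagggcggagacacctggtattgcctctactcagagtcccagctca
Cd3e and Cd3d each held 1 ETS word in these stretches and Cd3g held 1 GATA word. Such matches are descriptions of letters and not binding sites.

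Among the genes that act just below the T cell receptor, 5 of 6 tested were lower on slide 2 and the sixth, Lat, was not. Lck, the kinase that phosphorylates the CD3 chains, had slide 1 levels of 3.58 and 2.77 (WT) and 1.19 and 1.06 (EP2KO) and slide 2 levels of 0.417 and 0.497 (WT) and 0.259 and 0.383 (EP2KO). Zap70, the kinase recruited to them, had levels of 1.35 and 1.16 in WT and 0.497 and 0.47 in EP2KO on slide 1, and of 0.191 and 0.256 in WT and 0.12 and 0.16 in EP2KO on slide 2. Both had the same order, with WT on slide 1 highest, EP2KO on slide 1 next and EP2KO on slide 2 lowest. Lck differed by -1.49 on slide 1 and -0.53 on slide 2, and Zap70 by -1.38 and -0.67. Skap1, an adaptor that links the receptor to integrin adhesion, differed by -1.63 and -0.82. Txk, a Tec family kinase, differed by -1.30 on slide 1 and by -0.17 on slide 2, where the genotypes overlapped.

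Lat, the adaptor that Zap70 phosphorylates, had slide 1 levels of 0.489 and 0.367 (WT) and 0.192 and 0.2 (EP2KO) and slide 2 levels of 0.466 and 0.384 (WT) and 0.335 and 0.284 (EP2KO). It was the only member whose 4 EP2KO arrays all lay below the 4 WT arrays, as held for 0.954% of all features. Its levels on the slides overlapped (log2 difference 0.33 ± 0.18, SE, slide 2 minus slide 1, limma adjusted p = 0.182). The genotype difference was -0.78 ± 0.22 (SE, n = 4), with an unadjusted limma p of 0.00758 and an adjusted p of 1.00. Blocking by slide gave an adjusted p of 0.264.

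Ubash3a ran against the other genes of the receptor pathway on slide 1, whereas Themis followed them there but was below background on slide 2. Ubash3a, which encodes a suppressor of T cell receptor signalling, had levels of 0.0337 and 0.0222 in WT and 0.057 and 0.0646 in EP2KO on slide 1, and of 0.0127 and 0.00757 in WT and 0.00775 and 0.00875 in EP2KO on slide 2. On slide 1 it was the only member with both EP2KO arrays above both WT arrays, by 1.15 on the log2 scale, as held for 15.6% of all features, and on slide 2 the genotypes overlapped. Themis, needed for thymocyte selection, had slide 1 levels of 0.0311 and 0.0353 (WT) and 0.0157 and 0.0116 (EP2KO) and slide 2 levels of 0.00171 and 0.00156 (WT) and 0.00195 and 0.00196 (EP2KO). On slide 1 Themis differed by -1.30 between genotypes on the log2 scale. It passed the background limit on the 4 arrays of slide 1 and on 0 of 4 of slide 2, so its level was at least 6.19-fold higher on slide 1.

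The transcription factors of the T lineage were each lower on slide 2. Bcl11b, a factor that keeps T cells committed, had levels of 0.141 and 0.0786 in WT and 0.0345 and 0.0284 in EP2KO on slide 1, and of 0.0184 and 0.0181 in WT and 0.00433 and 0.0072 in EP2KO on slide 2. Its difference was -1.75 on slide 1, or 3.37-fold. Because 0 of 2 EP2KO arrays of slide 2 were well above background, the WT level there was at least 3.27-fold higher. Tcf7, which encodes the Wnt-responsive factor TCF-1, had slide 1 levels of 0.587 and 0.355 (WT) and 0.146 and 0.118 (EP2KO) and slide 2 levels of 0.0475 and 0.0609 (WT) and 0.0244 and 0.0449 (EP2KO). Lef1, its close relative, had levels of 0.502 and 0.189 in WT and 0.0845 and 0.0571 in EP2KO on slide 1, and of 0.0273 and 0.018 in WT and 0.0166 and 0.0188 in EP2KO on slide 2. Tcf7 was lower in EP2KO on either slide (-1.80 and -0.70), while Lef1 differed by -2.15 on slide 1 and overlapped between genotypes on slide 2. The WT arrays of slide 1 themselves spread, with Lef1 far higher on WT 1 than on WT 2.

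Gata3, a factor of helper T cells and of type 2 innate lymphoid cells, had slide 1 levels of 0.317 and 0.279 (WT) and 0.164 and 0.232 (EP2KO) and slide 2 levels of 0.104 and 0.0899 (WT) and 0.0435 and 0.0508 (EP2KO). Here the difference was -0.61 on slide 1 and -1.04 on slide 2, and the genotypes did not overlap on either. Ets1, used by T, NK and B cells, overlapped between genotypes on slide 1 and was lower in EP2KO on slide 2. Of 8 tested type 2 innate lymphoid cell markers, 3 were lower in both EP2KO arrays on both slides, as held for 4.1% of features. These 3 were the members Gata3 and Icos and Klrg1, which is on a wider list of T and NK cell genes given below. The count is therefore no separate result. The list of markers had a median of 0.26 on slide 1 and -0.29 on slide 2. Areg of that list reached the background limit on no array. The part of these cells in the Gata3 and Icos levels was not tested.

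The Bcl11b promoter is shown since this factor holds cells in the T lineage and its levels were lower in EP2KO on both slides. It lies at chr12:108003415-108003664 (minus strand, GRCm38.p6), and its capitals mark an ETS core and the TCF/LEF word CTTTGAA.
Bcl11b: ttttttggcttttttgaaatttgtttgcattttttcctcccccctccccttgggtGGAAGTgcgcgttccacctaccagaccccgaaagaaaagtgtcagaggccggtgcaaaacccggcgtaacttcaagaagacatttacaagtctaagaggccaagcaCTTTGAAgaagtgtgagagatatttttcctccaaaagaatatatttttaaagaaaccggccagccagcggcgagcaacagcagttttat
RefSeq promoters of 300 bases (250 before and 50 after the start) were at hand for 29 of the 40 genes, 39 promoters in all. The ETS word stood in 17 of 39 (43.6%) against 23.8% of all promoters, and the TCF/LEF word in 3 of 39 (7.69%) against 5.14%. The GATA word stood in 4 of 39 (10.3%) against 11.2%, all 4 of them on the T side.

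Among the surface and adhesion genes Cd5 and Thy1 followed the CD3 chains, whereas Cd2 did not. Cd5, which dampens T cell receptor signals, had levels of 1.73 and 1.18 in WT and 0.715 and 0.543 in EP2KO on slide 1, and of 0.201 and 0.179 in WT and 0.103 and 0.157 in EP2KO on slide 2. Thy1, the classical surface marker of mouse T cells, had slide 1 levels of 4.19 and 3.11 (WT) and 1.66 and 1.81 (EP2KO) and slide 2 levels of 0.962 and 0.805 (WT) and 0.264 and 0.411 (EP2KO). Each was lower in both EP2KO arrays of either slide, by -1.19 and -0.58 for Cd5 and by -1.06 and -1.42 for Thy1. Thy1 is also made by fibroblasts, and it is 1 of 20 markers on a list of stroma and mesothelium. On slide 2 all 20 were lower in both EP2KO arrays (median -3.32), as held for 21.4% of features. On slide 1 that list ran the other way (median 1.01), and Thy1 was its only gene lower in both EP2KO arrays (33.9% of features). Of the 20, 18 were above background on every array and the rest passed the filter through 1 genotype only. The part of stromal RNA in the Thy1 level was not tested.

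Cd6, a relative of Cd5, had levels of 1.06 and 0.789 in WT and 0.394 and 0.363 in EP2KO on slide 1, and of 0.177 and 0.148 in WT and 0.15 and 0.206 in EP2KO on slide 2. It was lower in EP2KO on slide 1 and overlapped on slide 2. Cd2, an adhesion molecule of T, NK and mouse B cells, was lower on slide 2 (log2 difference -2.86 ± 0.23, SE, limma adjusted p = 0.000197). Between the genotypes it differed by -0.40 on slide 1 and 0.28 on slide 2, and its levels on slide 1 were 20.0 and 20.5 in WT and 21.0 and 11.2 in EP2KO. EP2KO 1 was thus at the WT level and EP2KO 2 below it.

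The coreceptors parted into the CD8 chains and Cd4. Cd8a, the alpha chain of the class I coreceptor, had slide 1 levels of 0.141 and 0.0945 (WT) and 0.0287 and 0.0245 (EP2KO) and slide 2 levels of 0.013 and 0.0139 (WT) and 0.00809 and 0.0101 (EP2KO). Cd8b1, its beta chain, had levels of 0.456 and 0.256 in WT and 0.078 and 0.0584 in EP2KO on slide 1, and of 0.027 and 0.0192 in WT and 0.0183 and 0.0226 in EP2KO on slide 2. These had 2 of the 3 most negative differences of any member on slide 1, -2.12 and -2.34, or 4.35-fold and 5.06-fold, and smaller ones on slide 2 (-0.57 and -0.16). Cd4, the class II coreceptor, which some macrophages and dendritic cells also carry, had slide 1 levels of 1.04 and 0.946 (WT) and 0.853 and 0.694 (EP2KO) and slide 2 levels of 1.11 and 0.994 (WT) and 0.89 and 1.56 (EP2KO). It was lower in both EP2KO arrays of slide 1, by -0.36, and its levels on the slides overlapped (limma adjusted p = 0.215). The highest Cd4 level of all was that of EP2KO 4.

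The costimulatory receptors differed in direction between slides. Cd28, which gives T cells their costimulatory signal, had levels of 0.343 and 0.296 in WT and 0.26 and 0.31 in EP2KO on slide 1, and of 1.02 and 0.919 in WT and 0.787 and 2.01 in EP2KO on slide 2. It was higher on slide 2 by 1.88 ± 0.29 on the log2 scale (SE, limma adjusted p = 0.00248), with EP2KO 4 the highest of all arrays. Icos, a relative of Cd28 on activated and follicular helper T cells, had slide 1 levels of 0.193 and 0.29 (WT) and 0.154 and 0.167 (EP2KO) and slide 2 levels of 0.0743 and 0.0845 (WT) and 0.0554 and 0.0726 (EP2KO). It was lower on slide 2, and lower in EP2KO on both slides. Ctla4, the inhibitory counterpart of Cd28, had levels of 0.0439 and 0.0495 in WT and 0.023 and 0.0213 in EP2KO on slide 1, and of 0.0207 and 0.00585 in WT and 0.00176 and 0.00361 in EP2KO on slide 2. It passed the background limit on the 4 slide 1 arrays, on 1 WT array of slide 2 and on 0 of 2 EP2KO arrays there. With the other WT array of slide 2 also below background, no fold between genotypes is given there. Cd27, a survival receptor of T and NK cells, was lower in EP2KO on slide 1 (-1.39) and overlapped on slide 2 (-0.34).

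Il7r and Il2rb, the cytokine receptor chains on the list, ran in opposite directions between slides. Il7r, the alpha chain of the interleukin 7 receptor, had slide 1 levels of 1.26 and 0.881 (WT) and 1.06 and 1.54 (EP2KO) and slide 2 levels of 11.9 and 13.5 (WT) and 21.6 and 21.2 (EP2KO). Every slide 2 array lay above every slide 1 array, by 3.83 ± 0.19 on the log2 scale (SE, limma adjusted p = 5.02e-05), or 14.2-fold. The EP2KO arrays of slide 2 were above the WT arrays of that slide, by 0.75, and on slide 1 the genotypes overlapped. Il2rb, the beta chain shared by the receptors of interleukins 2 and 15, had levels of 0.828 and 0.764 in WT and 0.385 and 0.388 in EP2KO on slide 1, and of 0.104 and 0.163 in WT and 0.0772 and 0.139 in EP2KO on slide 2. Its level was lower on slide 2 by 2.26 ± 0.26 on the log2 scale (SE, limma adjusted p = 0.000674) and lower in EP2KO on slide 1 alone.

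The Il7r promoter is shown because Il7r had the largest slide difference of the members and the opposite direction. It lies at chr15:9529877-9530126 (minus strand, GRCm38.p6), with the ETS word in capitals.
Il7r: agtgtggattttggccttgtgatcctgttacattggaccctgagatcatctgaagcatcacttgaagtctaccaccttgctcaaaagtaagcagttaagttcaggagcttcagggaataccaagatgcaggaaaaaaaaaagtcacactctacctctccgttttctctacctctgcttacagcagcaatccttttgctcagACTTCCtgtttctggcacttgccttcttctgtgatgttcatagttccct

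**Figure D2:**
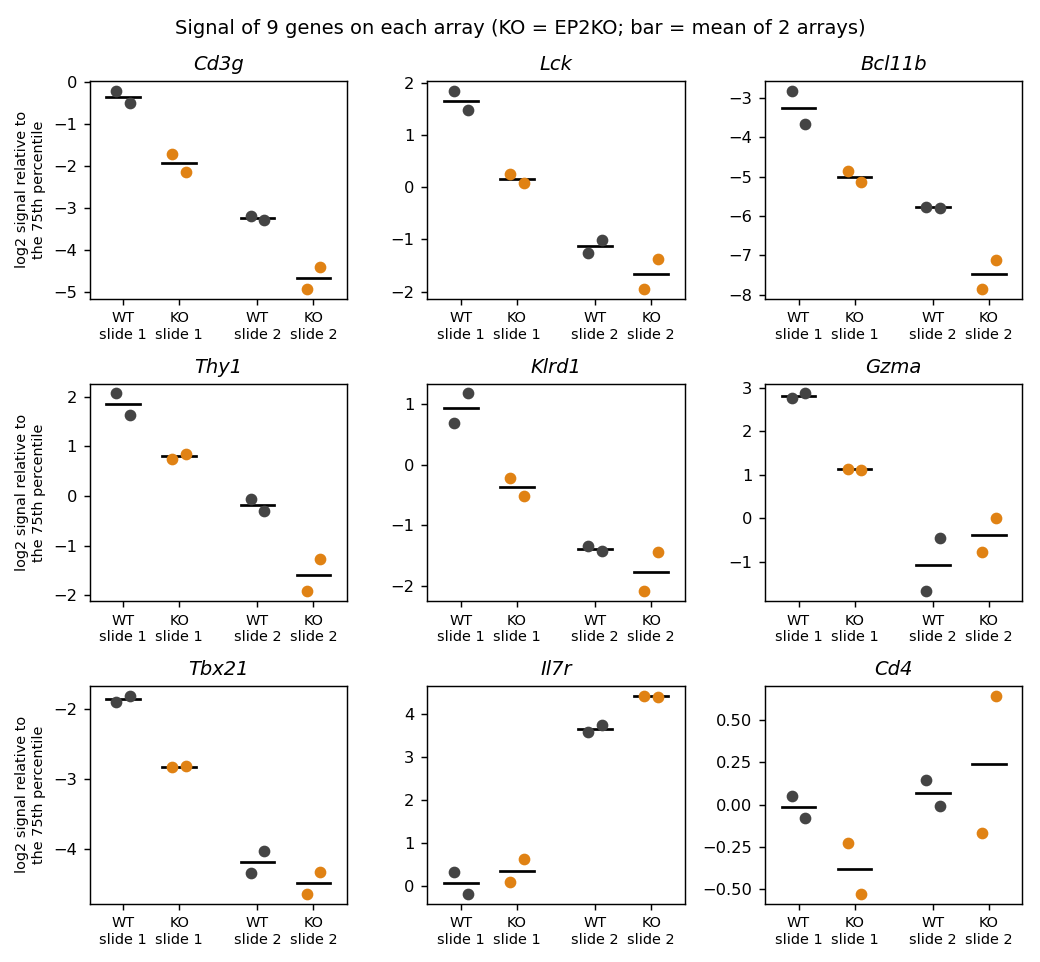
Levels of 9 T and NK cell genes on each array (points, log2 scale relative to the array's 75th percentile), by genotype and slide. Cd3g, Lck, Bcl11b, Thy1, Klrd1 and Tbx21 step down from WT on slide 1 to EP2KO on slide 1 and are lowest in EP2KO 3, Gzma is lowest in WT 3, Il7r is higher on slide 2, and Cd4 overlaps between slides.

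The NK receptor genes were all lower on slide 2 and all lower in EP2KO on slide 1. Ncr1, which encodes the activating receptor NKp46, had slide 1 levels of 0.0879 and 0.0836 (WT) and 0.0477 and 0.0399 (EP2KO) and slide 2 levels of 0.0396 and 0.0217 (WT) and 0.0161 and 0.0265 (EP2KO). Klrb1c, the gene of the NK1.1 antigen, had levels of 0.485 and 0.399 in WT and 0.198 and 0.222 in EP2KO on slide 1, and of 0.0803 and 0.0935 in WT and 0.0609 and 0.0838 in EP2KO on slide 2. Klrd1, which encodes CD94, had slide 1 levels of 1.62 and 2.26 (WT) and 0.86 and 0.7 (EP2KO) and slide 2 levels of 0.393 and 0.372 (WT) and 0.235 and 0.367 (EP2KO). In none of the 3 did a slide 1 EP2KO array reach the lower slide 1 WT array. Klrk1, which encodes NKG2D, had levels of 0.0607 and 0.0884 in WT and 0.0392 and 0.0409 in EP2KO on slide 1, and of 0.019 and 0.0192 in WT and 0.0114 and 0.0181 in EP2KO on slide 2. On slide 2 the differences were smaller, and for Klrd1 and Klrk1 alone among these receptors both EP2KO arrays stayed below both WT arrays. Klrd1 differed by -1.30 on slide 1 and -0.38 on slide 2, and Klrk1 by -0.87 and -0.41.

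The genes of cytotoxic granules were lower in EP2KO on slide 1 and mixed on slide 2. Gzma, granzyme A, had slide 1 levels of 6.78 and 7.30 (WT) and 2.20 and 2.16 (EP2KO) and slide 2 levels of 0.313 and 0.726 (WT) and 0.589 and 0.998 (EP2KO). That was 3.22-fold lower in EP2KO on slide 1, whereas on slide 2 the genotypes overlapped and the mean was higher in EP2KO by 0.69. Gzmb, granzyme B, had levels of 0.24 and 0.197 in WT and 0.0747 and 0.0902 in EP2KO on slide 1, and of 0.0204 and 0.049 in WT and 0.0172 and 0.0294 in EP2KO on slide 2. Prf1, perforin, had slide 1 levels of 0.31 and 0.227 (WT) and 0.226 and 0.151 (EP2KO) and slide 2 levels of 0.125 and 0.114 (WT) and 0.143 and 0.111 (EP2KO), so that its slide 1 groups did not overlap by a narrow margin. Nkg7, a granule membrane protein, had levels of 4.23 and 4.49 in WT and 3.03 and 3.46 in EP2KO on slide 1, and of 2.41 and 2.65 in WT and 3.08 and 3.51 in EP2KO on slide 2. Its levels on the slides overlapped by this probe (log2 difference -0.38 ± 0.18, SE, limma adjusted p = 0.131). Another, dimmer Nkg7 probe differed by -2.29 between slides and by -1.48 between genotypes on slide 1. On slide 2 its genotypes overlapped, with a difference of 0.019. The 2 probes thus disagree in size, and on slide 2 in whether the genotypes were apart.

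The Gzma promoter is shown as that of the NK side gene with the largest slide difference. It lies at chr13:113100982-113101231 (minus strand, GRCm38.p6), and the capitals mark the RUNX core TGTGGT, read as ACCACA on the other strand.
Gzma: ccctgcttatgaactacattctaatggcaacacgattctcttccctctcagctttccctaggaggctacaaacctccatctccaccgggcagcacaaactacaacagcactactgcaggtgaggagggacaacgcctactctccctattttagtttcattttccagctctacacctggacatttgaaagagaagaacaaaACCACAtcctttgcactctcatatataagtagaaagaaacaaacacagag
The RUNX word stood in 14 of the 39 member promoters (35.9%) against 16.8% of all promoters, in 9 of 11 on the NK side and 3 of 21 on the T side. Some of these promoters belong to the same gene. The T-box word GGTGTGA stood in 2 of 39 (5.13%) against 3.98% of all, both on the NK side.

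The factors of cytotoxic lymphocytes followed the receptors. Eomes, a T-box factor of NK cells and memory CD8 T cells, had slide 1 levels of 0.199 and 0.144 (WT) and 0.0616 and 0.0667 (EP2KO) and slide 2 levels of 0.0323 and 0.0313 (WT) and 0.0309 and 0.0406 (EP2KO). Tbx21, the T-box factor T-bet of NK and type 1 helper T cells, had levels of 0.27 and 0.286 in WT and 0.141 and 0.142 in EP2KO on slide 1, and of 0.0493 and 0.0615 in WT and 0.0402 and 0.0499 in EP2KO on slide 2. Xcl1, a chemokine that NK and CD8 T cells release, had slide 1 levels of 0.183 and 0.109 (WT) and 0.0782 and 0.0909 (EP2KO) and slide 2 levels of 0.0417 and 0.0309 (WT) and 0.0143 and 0.0252 (EP2KO). On slide 1 all 3 were lower in EP2KO, by -1.40, -0.97 and -0.74, and on slide 2 only Xcl1 among them had both EP2KO arrays below both WT arrays (-0.92). Between slides each was lower on slide 2, with limma adjusted p values of 0.00671, 0.000255 and 0.000777.

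Read slide by slide, the genotypes were apart for more members on slide 1. There both EP2KO arrays lay below both WT arrays for 32 of 37 genes (86.5%), against 33.9% of all features. On slide 2 this held for 18 of 37 (48.6%) against 21.4%. On both slides it held for 17 (45.9%) against 4.1%. Those 17 were Cd3d, Cd3e, Cd3g, Lat, Lck, Skap1, Zap70, Bcl11b, Tcf7, Gata3, Cd5, Thy1, Cd8a, Icos, Klrd1, Klrk1 and Xcl1. Bcl11b passed the filter through WT only. Among the 35 members above background on every array, 30 were separated in this way on slide 1 and 17 on slide 2. The share of features filtered alike was not taken for single slides. On both slides 16 of 35 members were separated (45.7%), against 3.63% of features filtered alike. The median difference was -1.11 on slide 1 and -0.34 on slide 2, beside -0.09 and 0.05 for all features. On slide 2 Cd2, Il7r and Nkg7 were higher in both EP2KO arrays, as held for 29.4% of features. By the dimmer Nkg7 probe the genotypes overlapped there.

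The slide 2 values depended on the scaling and the background correction of the arrays. With each array scaled to its median the number separated on both slides was 7 of 37 (18.9%, against 1.61% of features), and with quantile normalization 10 (27%, against 2.63%). All of these were among the 17. Cd3d, Cd3g, Gata3, Skap1 and Thy1 were separated under each scaling, and so was Bcl11b, by EP2KO values below background on slide 2. The slide 2 median over the members was then -0.07 and -0.06, while that of slide 1 stayed at -1.10 and -1.14. Scaling to the median moved the median of all features on slide 2 to 0.32, so relative to it the members' slide 2 shift stayed negative. With normexp background correction the slide 2 median was more negative, at -0.80 beside -0.96 on slide 1 (all features -0.13 and -0.12), and 16 of 37 members were separated on both slides (5.94% of features).

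**Figure D3:**
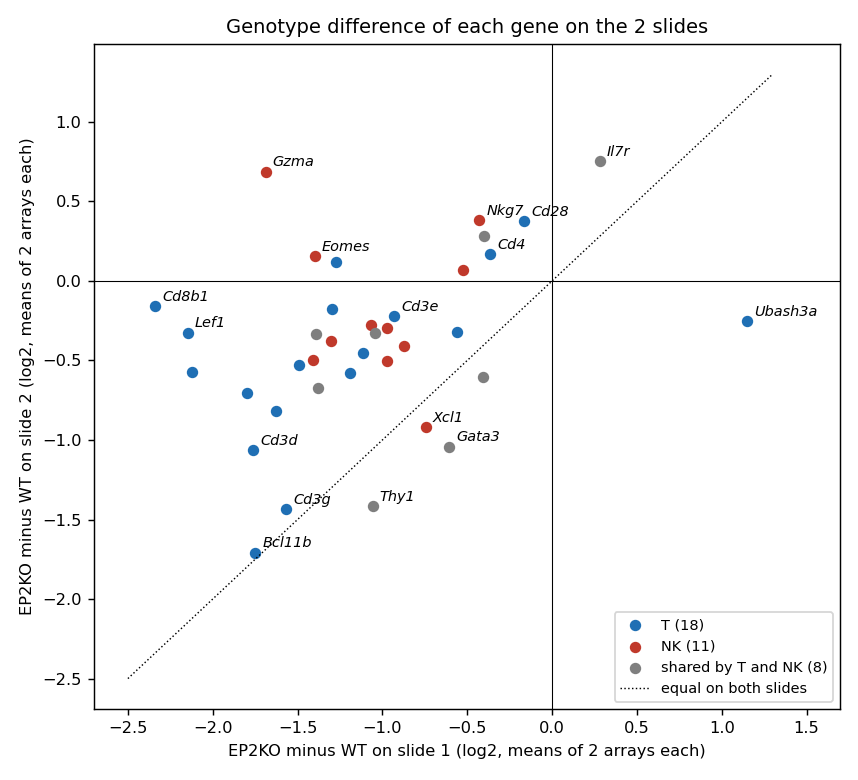
Log2 difference EP2KO minus WT on slide 1 (horizontal axis) against slide 2 (vertical axis) for the 37 tested T and NK cell genes, 1 point each, coloured by side. Most points lie to the left of 0 and above the line of equal differences, and Cd3g lies near that line. Bcl11b was below background in both EP2KO arrays of slide 2, so its vertical position is only a bound.

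With the slide as a block, 27 of 37 genes had an unadjusted p under 0.05 and a lower level in EP2KO (73%, against 4.84% of features), 14 of 18 on the T side and 7 of 11 on the NK side. Of the 35 members above background on every array 25 did so. Il7r was the 1 member with an unadjusted p under 0.05 and a higher level, as held for 2.5% of features. None passed after adjustment over all features, where 4 features (0.0193%) did. With the replicate number as a block 25 were lower at an unadjusted p under 0.05 (3.83% of features), the lowest adjusted p was 0.217, and 0 features passed. Without a block only Lat had an unadjusted p under 0.05 (1.47% of features were lower at that level). Limma fits of slide 1 alone and of slide 2 alone each called 0 members, beside 0 and 217 of 20744 features.

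Whether the genotype difference itself differed between the slides was tested by an interaction term, and 0 of 37 members passed (0.0145% of features did). The lowest adjusted p was 0.114, for Eomes, whose difference was 1.55 ± 0.29 (SE) higher on slide 2. A dimmer Eomes probe, above background on 5 arrays, differed by -1.59 on slide 1 and -0.55 on slide 2, so it was lower in EP2KO on either. At an unadjusted p under 0.05, 14 members had a positive interaction, a less negative difference on slide 2, against 11.1% of features. Ubash3a was the 1 member with a negative one (10% of features). Leaving out WT 1 made Eomes pass (1.32, limma adjusted p = 0.0492), 1 of 37 members beside 1438 of 20742 features. That fit has 1 WT array on slide 1, which is assumed to vary like the other groups.

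The T side and the NK side were then set side by side, with no test. Some T cells also make several NK side genes, so the NK side median is not a level of NK cells alone. For each array the log2 levels were centred gene by gene on their mean over the 8 arrays, and the median of each side was taken. The T side median was 2.12 and 1.71 on WT 1 and WT 2, 0.49 and 0.23 on EP2KO 1 and EP2KO 2, -0.82 and -0.75 on WT 3 and WT 4, and -1.62 and -1.19 on EP2KO 3 and EP2KO 4. The NK side median was 1.44 and 1.37, then 0.39 and 0.45, then -0.70 and -0.73, and then -1.34 and -0.73 in the same order. T minus NK was therefore 0.67 and 0.34 on WT 1 and WT 2 and 0.10 and -0.22 on the EP2KO arrays of slide 1. On slide 2 it was -0.12 and -0.02 in WT and -0.28 and -0.46 in EP2KO. On either slide both EP2KO arrays lay below both WT arrays in this difference, which does not depend on the scaling factor of an array. With normexp background correction slide 2 did not keep that order, with -0.46 on WT 4 and -0.14 on EP2KO 3. Separation on both slides was seen for 11 of 18 T side genes (61.1%) and 3 of 11 NK side genes (27.3%), against 4.1% of all features. Among T side genes above background on every array it was 10 of 17, against 3.63% of features filtered alike.

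Arrays of the same genotype and slide also differed in these genes together. WT 1 exceeded WT 2 for 30 of 37 members, 17 of 18 on the T side and 6 of 11 on the NK side, where 38.4% of all features were higher on WT 1. On slide 2, EP2KO 4 exceeded EP2KO 3 for 32 of 37, with a median difference of -0.49 for the T side and -0.65 for the NK side (EP2KO 3 minus EP2KO 4), where 49.5% of features were higher on EP2KO 3. The other pairs differed less, with EP2KO 1 above EP2KO 2 for 21 of 37 and WT 3 above WT 4 for 20 (56.3% of features in each). WT 1 and WT 2 were both above the other 6 arrays for 30 of 37 members, as held for 13.5% of features. WT 1 was highest for 26 members and EP2KO 3 lowest for 26. As the arrays fall into 2 slides of 4, no correlation across arrays is given.

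Markers of other cell types were read from the same arrays, by lists that differ in their direction. Of 18 B cell markers, such as Cd79a and Cd79b, 16 were lower on slide 2 (median -3.03), as were most T and NK cell genes and 18.2% of features. On slide 1, however, 0 of 18 had both EP2KO arrays below both WT arrays (median -0.09), against 32 of 37 members and 33.9% of features, and on slide 2 12 of 18 did (21.4% of features). The summed level of the B cell list ran from 68.5 to 167 in WT and from 79.8 to 174 in EP2KO. Summed over the T side it ran from 4.31 to 16.7 in WT and from 3.27 to 6.37 in EP2KO, and over the NK side from 3.52 to 15.6 and from 4.24 to 7.17. The macrophage list differed by a median of 0.01 between genotypes and -0.10 between slides, with sums of 543 to 843 in WT and 658 to 752 in EP2KO. Within it 9 of 17 genes were lower in both EP2KO arrays on slide 1 (33.9% of features), and 8 were higher in both on slide 2 (29.4%).

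**Figure D4:**
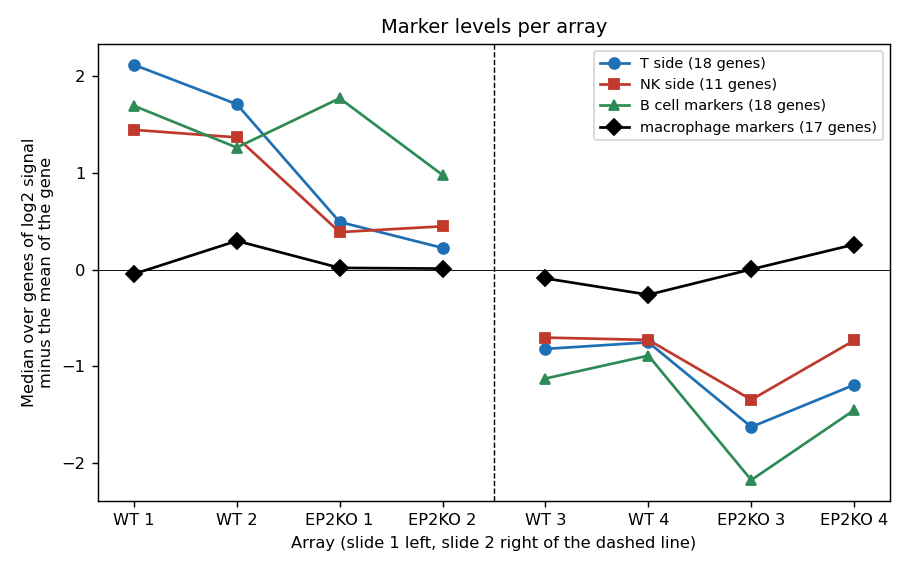
Median log2 level of the T side, NK side, B cell and macrophage genes on each array, each gene centred on its mean over the 8 arrays. T and NK side medians are lower in EP2KO than in WT on slide 1. The B cell median of EP2KO 1 (1.77) is near that of WT 1 (1.69), while that of EP2KO 2 (0.98) is below that of WT 2 (1.26). The macrophage median stays between -0.26 and 0.30 on every array.

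Some other lists also had medians away from 0 between genotypes. Of 15 mast cell and eosinophil markers, 11 were higher in both EP2KO arrays on slide 1 (15.6% of all features were) and 9 on slide 2 (29.4%), with a median of 1.36. Only 12 of the 15 were above background on every array, and the rest passed the filter through 1 genotype only. Dendritic cell markers had a median of -0.36, with 7 of 15 lower in both EP2KO arrays on slide 1 (33.9% of features) and 9 on slide 2 (21.4%). Of 14 markers of large peritoneal macrophages, such as Gata6 and Timd4, 11 were higher in both EP2KO arrays on slide 1 (15.6% of features). On slide 2 it was 6 (29.4%). That list had a median of 0.94 between genotypes, of 1.28 on slide 1 and 0.45 on slide 2. Between the slides 10 of its genes were lower on slide 2 (median -2.21), as were 18.2% of features. The part of these cells in the T and NK cell gene levels was not tested.

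A wider list of 89 T and NK cell genes, with no member on it, was read in the same way. Of these 85 had a probe and 81 passed the filter, while Cd160 and Tigit reached that limit on no array. None passed the test between genotypes. The median difference was -0.47, with 72 of 81 lower in EP2KO, and it was -0.58 on slide 1 and -0.38 on slide 2. Both EP2KO arrays were below both WT arrays for 54 of 81 on slide 1 (33.9% of all features), 35 on slide 2 (21.4%) and 24 (29.6%) on both (4.1%). Of the 81, 77 were above background on every array. Trat1, Gzmc, Ifng and Tox passed the filter through WT only, and Trat1 and Tox are among the 24. Between the slides 64 were lower on slide 2 (18.2% of features) and 6 higher (25.1%).

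The 6 genes of that list with the lowest p in the fit with the slide as a block were 3 receptors of cytokines or the tumour necrosis factor family, 2 inhibitory receptors and 1 adaptor. Tnfrsf25, a death domain receptor of T cells, had levels of 0.662 and 0.509 in WT and 0.278 and 0.319 in EP2KO on slide 1, and of 0.213 and 0.231 in WT and 0.0813 and 0.0965 in EP2KO on slide 2. It differed by -1.14 ± 0.14 (SE, slide block, limma adjusted p = 0.109). Il18r1, a chain of the interleukin 18 receptor, differed by -0.73 ± 0.14 and Il21r, the interleukin 21 receptor, by -1.09 ± 0.21. The inhibitory receptor Lag3 had slide 1 levels of 0.0242 and 0.0383 (WT) and 0.0176 and 0.0136 (EP2KO) and slide 2 levels of 0.0202 and 0.0232 (WT) and 0.0129 and 0.0108 (EP2KO). Lag3 differed by -0.93 ± 0.18, and Pdcd1, the inhibitory receptor PD-1, by -1.30 ± 0.28. Sh2d1a, the adaptor SAP of T and NK cells, differed by -1.17 ± 0.23. For these 6 genes both EP2KO arrays lay below both WT arrays on either slide, as held for 4.1% of all features. Choosing them by that p favours such a separation, so it is no separate result. For Lag3 the 4 EP2KO arrays lay below all 4 WT arrays (0.954% of features).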

How the data were processed

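The arrays were one-colour Agilent whole-genome arrays hybridised with Cy3-labelled macrophage RNA (0.5 µg per sample, per the labels' protocols). The deposited scanner files hold intensity values per spot. Per the file headers, the authors extracted them with Feature Extraction 10.7.1.1 on a design of build mm9, and the processed signal was background-corrected but not scaled between arrays. Version 9.1 of that program is named per the submitters' processing notes. The deposited series table held the same intensity values as the processed signal (largest log2 difference 0).

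From these, log2 of the processed signal minus each array's 75th percentile was computed after 1377 control spots and outlier-flagged spots were left out, and repeat spots were averaged. RefSeq transcripts (GRCm38.p6) named 27508 of 39429 probes. Probes well above background on all 4 arrays of a genotype were kept and the brightest stood for its gene, which left 14499 named genes and 6245 unnamed probes. Where every array of a compared group was below background, a fold is a bound: the brighter mean was set against the dim value or, where that was lower, against the lowest signal that counted as above background on the array.

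Fits used limma 3.58.1 in R 4.3.3 (lmFit, eBayes), two-sided, with Benjamini-Hochberg adjustment over all 20744 features and a threshold of 0.05. Main fits were genotype without a block, slide with genotype as a term, and their interaction. Differences are EP2KO minus WT. The fits were tested on simulated data. Slide 1 is that of WT 1. Arrays of equal number deviated together (r across features 0.74, 0.12, 0.55 and 0.43 for numbers 1 to 4), and since each r exceeded 0.1 a replicate block is also given, although each such pair shares its slide too.

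Alternatives covered background, scaling, filters, probe choice, blocks, array weights, the variance model, single slides and genotypes, and each array left out. Normexp (offset 50) ran on the median spot signal, as no mean column was at hand. Separation on both slides under other processing was added after seeing the data. The members and all lists were chosen with earlier results of these data known. Array values are given for a fixed set of 34 members spread over the roles, for members opposite in direction to the median or with the largest slide differences, and for genes of the wider list chosen by p with the slide as a block. The Xist and Y-linked check was chosen after values were seen. The precision is limited by the number of arrays.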

Additional observations from a re-analysis of the deposited data

How the results depend on the processing

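No member was called between genotypes under any alternative, and 26 of 37 kept a lower EP2KO mean in all 21 settings. Features called between genotypes numbered 2, and 4 with the slide as a block, 4 with it as a random block (correlation 0.579), 0 with the replicate block, 0 on slide 1 alone and 217 on slide 2 alone. The replicate block changed no call of a member. Leaving out 1 array gave 0 to 4 features. The member median then ran from -1.13 to -0.37, that of the T side from -1.43 to -0.41 and that of the NK side from -1.08 to -0.26, lowest in size without WT 1. Without WT 2 they were -0.42, -0.67 and -0.30, and without EP2KO 3 -0.41, -0.69 and -0.34. Without WT 3 the NK side median was -1.08 and the T side median -1.43, and without WT 4 the T side median was -1.42.

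Some genotype differences changed sign, all of them uncalled. With normexp Ubash3a was -0.38 and Nkg7 0.071. With median scaling Cd2 was 0.080, Cd4 0.042 and Nkg7 0.12. With array weights Cd2 was 0.22, Cd28 -0.10 and Nkg7 0.0060. On slide 1 alone Cd28 was -0.17, and on slide 2 alone Ubash3a was -0.25, Cd6 0.12, Cd2 0.28, Cd4 0.17, Nkg7 0.38, Gzma 0.69, Prf1 0.068 and Eomes 0.15. Dimmer probes had slide 2 differences of -0.27 for Cd6, -0.11 for Cd4, -0.55 for Eomes and 0.019 for Nkg7. For Klrb1c the dimmer probe gave 0.069 there and the tested one -0.28. With 1 array left out, Ubash3a ran from -0.061 (without EP2KO 2) to 0.96, Ets1 from -1.15 to 0.037 (without EP2KO 3), Cd2 from -0.63 to 0.48 (without WT 2) and Cd4 from -0.33 to 0.055 (without EP2KO 2). Cd28 ran from -0.48 (without EP2KO 4) to 0.51, Il7r from -0.17 (without WT 2) to 1.29, Nkg7 from -0.18 to 0.12 (without WT 2), Gzma from -1.35 to 0.16 (without WT 2) and Prf1 from -0.44 to 0.038 (without WT 1).

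Between slides 34 members were called, and 34 without any 1 array. With normexp 18 members and 3723 features were called, against 8967 features, and WT arrays alone gave 2743, on fewer samples. Lat was -0.0019 in WT arrays alone and Nkg7 0.025 in EP2KO arrays alone. For the interaction 3 features were called, and 0 with normexp, 5 with median scaling, 1 without a filter, 14 with probes above background on all 8 arrays, 11 with a trended robust variance and 1 with array weights. Leaving out 1 array gave 0 to 1438 (1438 without WT 1, 80 without WT 4, 9 without EP2KO 3) and 0 to 1 members. Members separated on both slides numbered 17, and 10 with quantile and 7 with median scaling. The causes were not tested. Median scaling moved the median of all features to 0.11 between genotypes. Dim probes limit Bcl11b, Cd27, Cd247, Themis and Ctla4.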
